A study of Homo sapiens with 16 samples.

Results

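The transcriptomes compared here were those of U2OS cells, a human osteosarcoma line, after knockdown of MRG15 (gene MORF4L1) or of its binding partner MRGBP. The comparison rested on 4 of the 12 RNA-seq libraries in a series of 16 samples: 2 transfected with a pool of small interfering RNAs against MRG15 (siMRG15) and 2 with a pool against MRGBP (siMRGBP), both Dharmacon smartpools. All 8808 genes of the deposited table were used. The 2 libraries with an siRNA against luciferase (siLuc) served as the control beside them. Cells of every group grew under normal conditions without further treatment, and poly(A) RNA was sequenced. Each target was depleted with 1 pool, so loss of the target and other effects of its pool cannot be told apart.

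MRG15 is a chromatin protein whose chromodomain binds methylated lysine 36 of histone H3, a mark of transcribed gene bodies, and whose MRG domain docks several different partners. MRGBP is a small protein that binds the MRG domain and is known as a subunit of the TIP60 (NuA4) histone acetyltransferase complex. MRG15 is also found in SIN3 histone deacetylase complexes, with the PALB2 and BRCA2 repair proteins, with the ASH1L methyltransferase and with the splicing regulator PTBP1.

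Levels are in CPM, read counts scaled to library size, as the authors deposited them. Differences are on the log2(CPM + 1) scale and mean siMRG15 minus siMRGBP where no other pair is stated. Errors are SE from the limma fit to all RNA-seq libraries of the series, with 2 libraries in each group. The SE of a gene is thus pooled over the groups and is the same in each of its comparisons. limma also drew it toward a trend of spread with level, fitted over all genes. The SE is not the spread of the compared libraries alone. "Past the test" means a limma p-value below 0.05 after Benjamini-Hochberg adjustment over all 8808 genes. The library sizes recovered from the values of the 4 libraries were 57255783 to 94945989 reads. The heading of the deposited table marks its genes as significantly differentially expressed, so shares of genes below are shares of selected genes.

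The siRNA targets were examined first. MORF4L1 stood at 15.7 and 13.7 CPM in the siMRG15 libraries, 292 and 275 CPM in the siMRGBP libraries and 315 and 328 CPM in the siLuc libraries. MRGBP stood at 67.7 and 69.1 CPM in siMRG15, 7.96 and 7.82 CPM in siMRGBP and 91.4 and 115 CPM in siLuc. Each transcript was thus lowest in the libraries labelled with its own siRNA, with no overlap between groups. The direct difference was -4.18 ± 0.07 for MORF4L1 and 2.96 ± 0.09 for MRGBP (limma adjusted p = 8.61e-13 and 3.22e-11). MRGBP was also lower in siMRG15 than in siLuc, at -0.58 ± 0.09 (limma adjusted p = 6.50e-05), whereas MORF4L1 differed from siLuc by -0.18 ± 0.07 in siMRGBP (limma adjusted p = 0.0318). The processed pseudogene MORF4L1P1 followed its parent gene, at 0.416 and 0.590 CPM in siMRG15 and 12.7 and 12.6 CPM in siMRGBP, and reads of the near-identical pair may have been split between them.

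**Figure D1:**
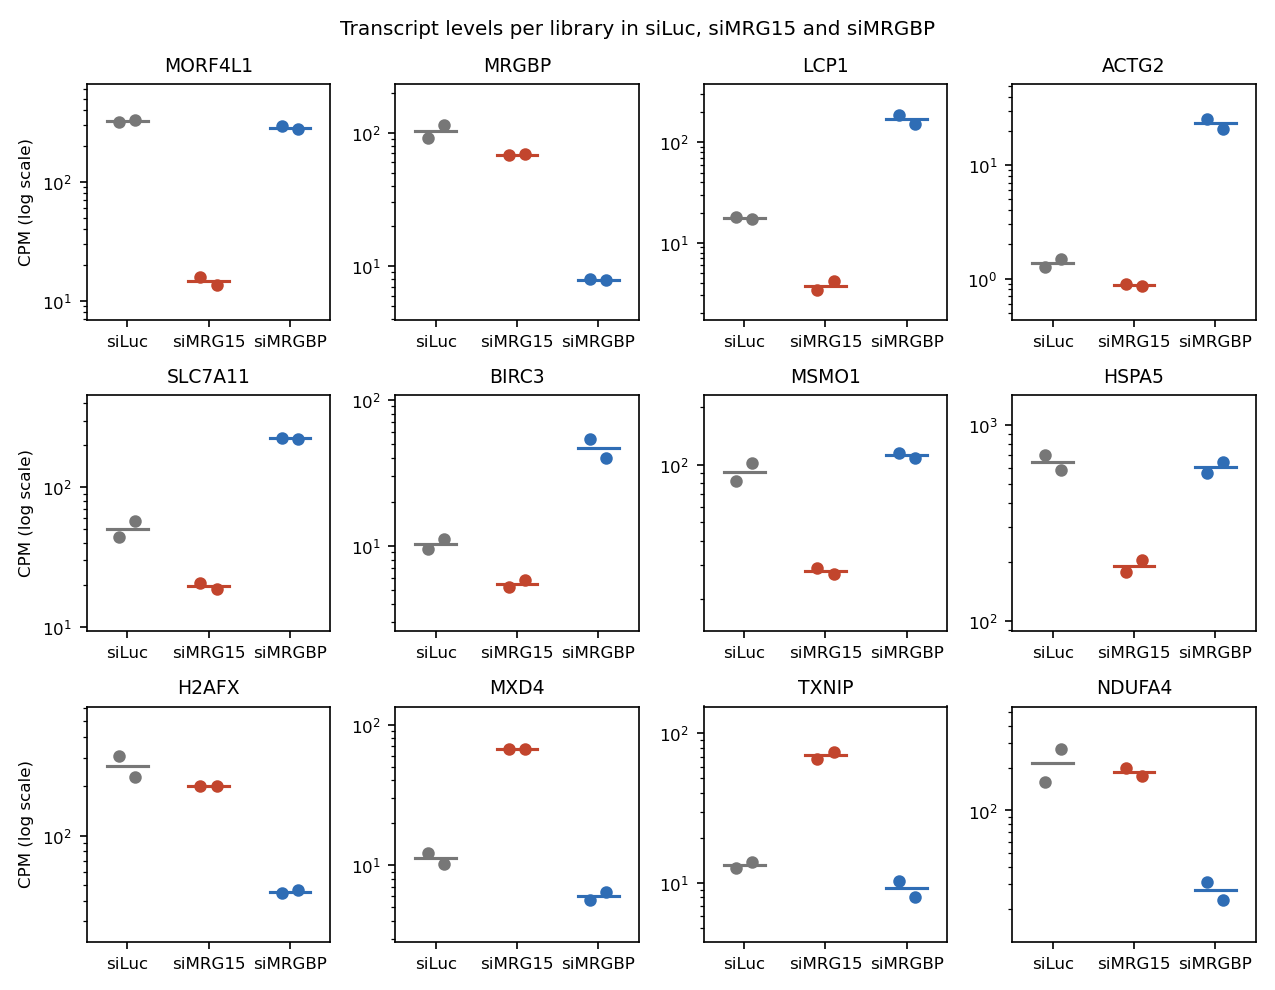
Levels in CPM (log axis) of 12 genes in each library of siLuc (grey), siMRG15 (red) and siMRGBP (blue). Points are libraries and bars are means of 2. MORF4L1 is lowest in siMRG15 and MRGBP in siMRGBP, and for every gene drawn the siMRG15 and siMRGBP libraries do not overlap.

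Among the 9 measured subunits of the TIP60 complex, 2 were higher and 4 lower in siMRG15 than in siMRGBP, and 3 did not pass the test. The siRNA targets are counted there, MRGBP as higher and MORF4L1 as lower. Over all 8808 genes 76% passed the same test, 39.2% higher and 36.8% lower in siMRG15, so the share of subunits that passed was near the background and below it. Aside from the targets, the ATPase RUVBL1 had 48.9 and 50.5 CPM in siMRG15 against 104 and 98.6 CPM in siMRGBP (-1.02 ± 0.06). The actin-related subunit ACTL6A had 33.8 and 35 against 64.2 and 62.8 CPM (-0.87 ± 0.06). The bromodomain subunit BRD8 went the other way, with 74.0 and 78.9 CPM in siMRG15 against 48.1 and 47.1 CPM in siMRGBP (0.67 ± 0.07; limma adjusted p = 2.18e-06). Against siLuc, BRD8 fell by 0.68 in siMRGBP, and in siMRG15 it differed by -0.01 ± 0.07. KAT5, which encodes the acetyltransferase TIP60 itself, had 17.4 and 17.5 CPM against 17.9 and 16.8 CPM, a difference of 0.01 ± 0.07 (limma adjusted p = 0.93). MORF4L2, the paralogue of MRG15, differed by -0.27 ± 0.09 (limma adjusted p = 0.0212), a call lost without either siMRG15 replicate (limma adjusted p = 0.0826 and 0.0661), without siMRGBP replicate 1 (0.206) and with TMM scaling (0.0790).

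Of the 8 measured genes listed as partners of MRG15 outside the TIP60 complex, 6 were higher and 2 lower in siMRG15, with a median of 0.67. The 2 lower ones include MORF4L2, which is counted above among the TIP60 subunits too and whose call was lost in some settings. The BRCA2-interacting repressor EMSY, listed as C11orf30, had 109 and 115 CPM in siMRG15 against 45.7 and 53.1 CPM in siMRGBP (1.17 ± 0.07). ARID4A, a SIN3 complex subunit, differed by 0.78 ± 0.08, PSIP1, a reader of methylated lysine 36 of histone H3, by 0.73 ± 0.10, and PTBP1 by 0.65 ± 0.08. RBBP4, a histone chaperone of several complexes, went the other way at -0.66 ± 0.06. Against siLuc EMSY, ARID4A, PSIP1 and PTBP1 differed by 0.25 ± 0.07, 0.16 ± 0.08, -0.13 ± 0.10 and 0.04 ± 0.08 in siMRG15. In siMRGBP they fell by 0.93, 0.62, 0.85 and 0.61, in the same order. BRMS1L, also higher in siMRG15 (0.69 ± 0.09), had another pattern. It was above siLuc by 0.65 ± 0.09 in siMRG15 and differed from it by -0.05 ± 0.09 in siMRGBP.

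Across the whole table the partner knockdowns left different transcriptomes. Of 8808 genes, 6697 passed the test between siMRG15 and siMRGBP (76%), 3455 higher in siMRG15 (39.2%) and 3242 lower (36.8%). Differences of at least 2-fold were seen in 1726 genes (19.6%), of which 672 were higher (7.63%) and 1054 lower in siMRG15 (12%). This scale compresses the differences of low genes, and edgeR on the recovered reads counted 1366 genes higher and 1628 lower at this fold. The libraries of the groups did not overlap for 7656 genes (86.9%), and for 6690 (76%) they also passed the test. At 4-fold or more the split was 43 genes higher and 142 lower. Both knockdowns shared the siLuc control. Against it 6100 genes passed in siMRG15 (69.3%; 33.5% higher, 35.8% lower), and 5723 in siMRGBP (65%; 32.1% higher, 32.9% lower). At least 2-fold changes numbered 1048 in siMRG15 (11.9%; 5.1% higher, 6.8% lower) and 767 in siMRGBP (8.71%; 5% higher, 3.71% lower). The median absolute difference was 0.51 between the knockdowns, 0.41 between siMRG15 and siLuc and 0.35 between siMRGBP and siLuc, so by these measures the knockdowns lay farther from each other than either lay from the control.

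The direction of the large differences varied with level. Among genes with a mean of over 100 CPM in the 4 libraries 23.9% were at least 2-fold lower in siMRG15 and 3.98% at least 2-fold higher, whereas between 5 and 20 CPM the shares were 13.0% and 14.7%. The listed genes together made up 30.4 and 31.1% of the siMRG15 libraries and 36.9 and 37.5% of the siMRGBP libraries. The median difference of all genes was 0.02, and 0.06 after TMM scaling.

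**Figure D2:**
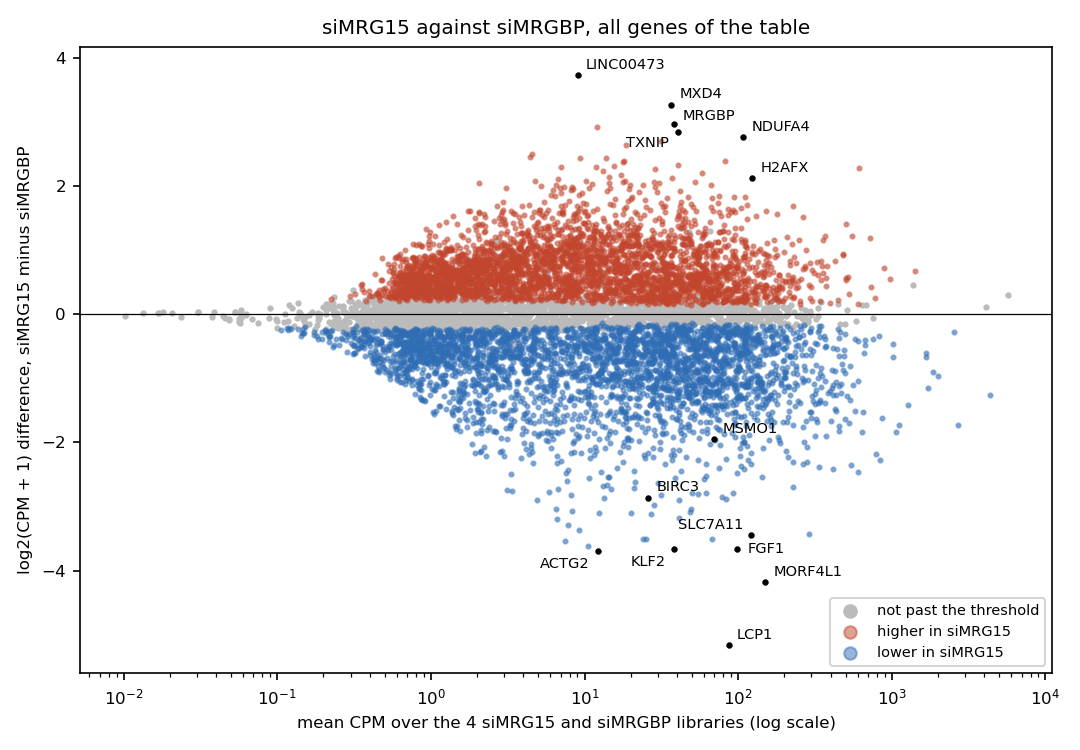
Difference between siMRG15 and siMRGBP on the log2(CPM + 1) scale for all 8808 genes (vertical axis) against the mean CPM of the 4 libraries (horizontal log axis). Red and blue points passed the test (3455 higher and 3242 lower in siMRG15), grey points did not. Of the labelled genes LCP1 has the largest negative difference and LINC00473 the largest positive one.

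The gene lists are described by how many measured members passed the test in each direction and by their median difference, which for all genes was 0.02. These counts stand beside those of the whole table, where 39.2% of genes were higher in siMRG15, 36.8% lower, and 12% lower by at least 2-fold. The lists were chosen with earlier results of these data known. A list share above that of all genes is therefore a description and not a test. Against siLuc 33.5% of all genes were higher and 35.8% lower in siMRG15, and 32.1% higher and 32.9% lower in siMRGBP. Several lists share members, among them CTGF, TAGLN, TGFB2, PTBP1, MORF4L2, SLC7A11, SESN2, LDHA, CENPA and COL1A1. Some members that went against their list fall outside the naming rule and are named because their values were seen.

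Genes of the actin cytoskeleton were lower in siMRG15 than in siMRGBP in 18 of 21 measured members, 14 of them by at least 2-fold, and the median was -1.26. LCP1, the actin-bundling protein L-plastin, had 3.38 and 4.13 CPM in siMRG15, 188 and 151 CPM in siMRGBP and 18.1 and 17.4 CPM in siLuc. It was the largest difference of the table, -5.16 ± 0.10 (limma adjusted p = 2.22e-12), and both knockdowns lay outside the siLuc range, on opposite sides. ACTG2, a smooth muscle actin, had 0.891 and 0.853 CPM in siMRG15, 25.8 and 21.0 CPM in siMRGBP and 1.28 and 1.48 CPM in siLuc (-3.70 ± 0.11; limma adjusted p = 3.53e-11). Its siMRGBP libraries stood far above the other 4. The cytoplasmic actin ACTG1 had 1239 and 1248 CPM in siMRG15, 4113 and 4119 CPM in siMRGBP and 1272 and 1123 CPM in siLuc. Here siMRG15 overlapped siLuc and siMRGBP lay above both (-1.73 ± 0.08). Actin genes are closely similar in sequence, and no source used here says how reads matching several of them were counted.

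The actin-binding proteins tropomyosin 4 (TPM4) and caldesmon (CALD1) were at 202 and 212 and at 71.4 and 77.8 CPM in siMRG15, and at 737 and 656 and at 293 and 295 CPM in siMRGBP. Both lay on opposite sides of siLuc, TPM4 at -0.73 ± 0.07 in siMRG15 and 1.01 ± 0.07 in siMRGBP, and CALD1 at -1.15 ± 0.09 and 0.81 ± 0.09. The plakin EPPK1 rose from 0.924 and 0.583 CPM in siLuc to 12.9 and 18.5 CPM in siMRGBP and had 1.08 and 0.822 CPM in siMRG15. The 3 members higher in siMRG15 were ACTA2 (1.14 ± 0.10), another smooth muscle actin, the actin-severing protein cofilin CFL1 (1.21 ± 0.07) and the nonmuscle myosin heavy chain MYH10 (1.25 ± 0.11). The list's median against siLuc was -0.34 in siMRG15 and 1.01 in siMRGBP.

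Serum response factor, a regulator of actin genes, is known to bind a short element called the CArG box. It was searched on both strands in the 250 bases before the start of each gene in the RefSeq table of GRCh38.p14, where 1.14% of 27305 promoters held a match. Of the 16 actin members with a promoter there, 4 held one: ACTG1, ACTG2, TPM4 and FLNA, all lower in siMRG15. ACTG2 held 2, starting 110 and 73 bases before the gene, and its promoter is shown since it had the largest difference of the 4. The window is chr2:73892758-73893007 on the plus strand, with the CArG boxes in capitals. A match is a description of the sequence only.
ACTG2: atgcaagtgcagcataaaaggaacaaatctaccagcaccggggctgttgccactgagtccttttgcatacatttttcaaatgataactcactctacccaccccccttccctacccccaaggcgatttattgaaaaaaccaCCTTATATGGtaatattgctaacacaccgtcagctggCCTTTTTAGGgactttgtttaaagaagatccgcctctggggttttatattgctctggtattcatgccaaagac

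**Figure D3:**
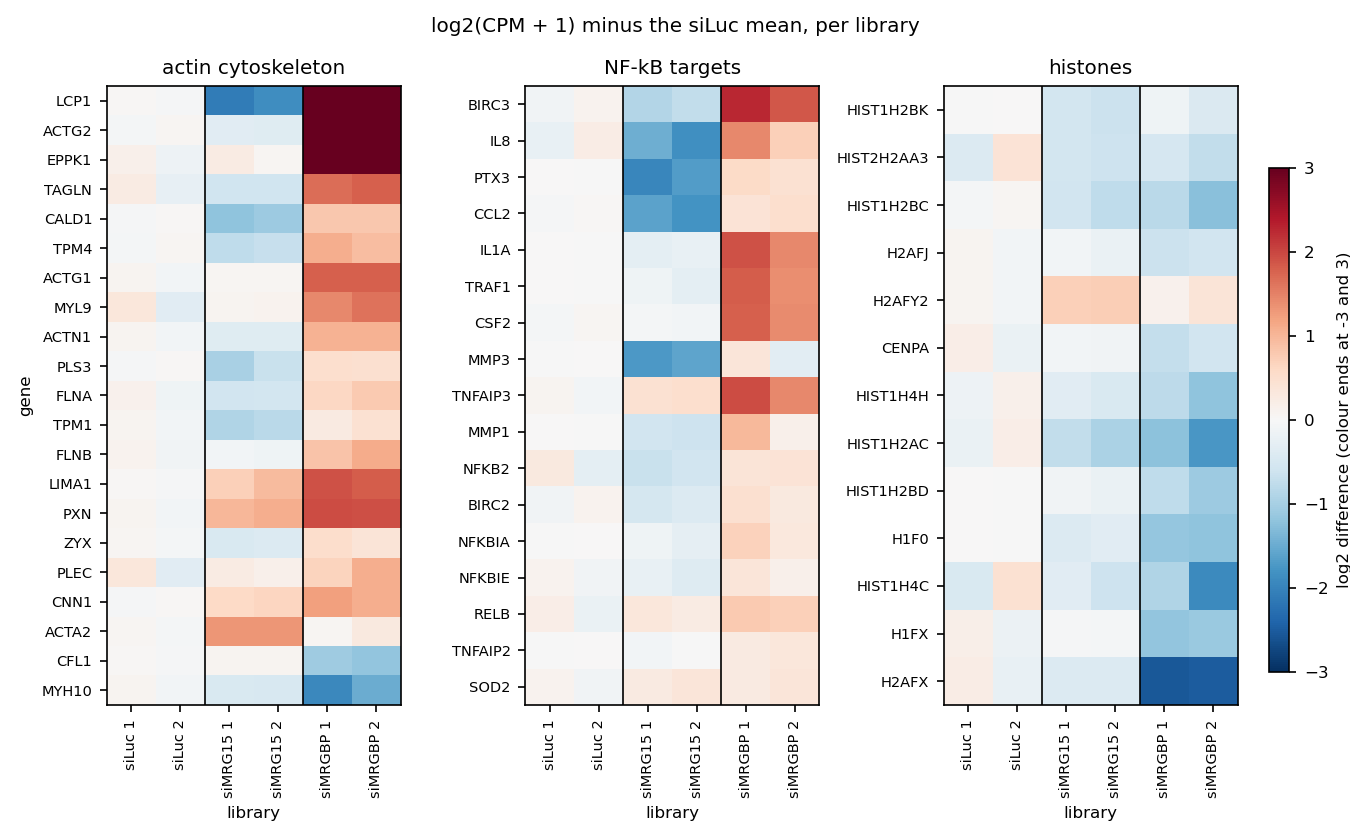
Each library's log2(CPM + 1) minus the siLuc mean for the measured members of 3 gene lists, ordered by their difference between siMRG15 and siMRGBP; the colour scale ends at -3 and 3. Most actin and NF-kB genes are red in siMRGBP and pale or blue in siMRG15, and most histone genes are a deeper blue in siMRGBP.

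YAP is the transcriptional coactivator of the Hippo pathway. The list of its targets, which also holds genes of the pathway itself such as LATS2, was lower in siMRG15 in 10 of 13 measured members (median -1.36). ANKRD1, a nuclear ankyrin-repeat protein, had 102 and 113 CPM in siMRG15, 579.6 and 553 CPM in siMRGBP and 125 and 117 CPM in siLuc (-2.39 ± 0.07), and siMRG15 lay just under siLuc without passing that test (limma adjusted p = 0.0528). The secreted matricellular proteins CTGF and CYR61 differed by -2.46 ± 0.07 and -2.18 ± 0.10. For both, siMRG15 lay below siLuc (-1.74 ± 0.07 and -1.11 ± 0.10) and siMRGBP above it (0.72 ± 0.07 and 1.08 ± 0.10). F3, the tissue factor of coagulation, had 1.56 and 1.36 CPM against 14 and 13.9 CPM. FSTL1, a secreted glycoprotein, was instead low mainly in siMRG15, with 131 and 134 CPM against 414 and 428 CPM in siMRGBP and 542 and 534 CPM in siLuc. Of the pathway's own genes, WWTR1, which encodes the coactivator TAZ, differed by -0.42 ± 0.08. YAP1 had 63.8 and 61.7 CPM in siMRG15 and 59.9 and 66.4 CPM in siMRGBP (-0.01 ± 0.06; limma adjusted p = 0.918), well under the 180.1 and 178 CPM of siLuc in both. NF2, the upstream tumour suppressor merlin, was higher than siLuc in both knockdowns (1.91 ± 0.07 in siMRG15, 1.67 ± 0.07 in siMRGBP), and the kinase LATS2 was higher in siMRG15 than in siMRGBP (1.16 ± 0.08).

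Extracellular matrix and TGF-beta response genes were lower in siMRG15 in 16 of 24 measured members and higher in 5 (median -0.71). The matrix glycoprotein TNC had 137 and 124 CPM in siMRG15, 662 and 744 CPM in siMRGBP and 381 and 343 CPM in siLuc. Its groups did not overlap, and siLuc lay between the knockdowns. The proteoglycan VCAN stood at 0.831 and 0.600 CPM in siMRG15 and 22.8 and 17.7 CPM in siMRGBP (-3.62 ± 0.14). COL6A3 and THBS1, a collagen chain and thrombospondin 1, fell in siMRG15 against siLuc by 2.28 and 2.08, and in siMRGBP their differences from siLuc were 0.02 ± 0.10 and -0.23 ± 0.08. The 5 members higher in siMRG15 were 4 fibrillar collagen chains, COL1A1 (0.66 ± 0.12), COL3A1 (0.82 ± 0.09), COL5A1 (0.60 ± 0.12) and COL5A2 (0.26 ± 0.10), and THBS2 (0.61 ± 0.10). In the same libraries the marker genes of other cell types moved too. Of 7 measured epithelial markers 5 were lower in siMRG15, with summed levels of 156 and 164 CPM against 292 and 317 CPM in siMRGBP and 185 and 254 CPM in siLuc. The call for KRT17 was lost without siMRG15 replicate 2 or siMRGBP replicate 2 (limma adjusted p = 0.0812 and 0.125) and with DESeq2 on recovered reads (adjusted p = 0.0643). The keratin KRT18 and the junction proteins CLDN4 and CDH1 differed by -1.07 ± 0.08, -1.48 ± 0.09 and -1.50 ± 0.08. In bulk RNA, fewer cells of a type and less RNA per cell cannot be told apart, and the part of these markers in the results was not tested.

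NF-kB targets were lower in siMRG15 than in siMRGBP in 16 of 17 measured members, 11 by at least 2-fold, with none higher (median -1.21). NF-kB is the transcription factor of inflammatory and survival signalling, and its targets include its own inhibitors. BIRC3, an inhibitor of apoptosis, had 5.17 and 5.79 CPM in siMRG15, 53.4 and 39.7 CPM in siMRGBP and 9.49 and 11.1 CPM in siLuc (-2.86 ± 0.12; limma adjusted p = 6.60e-10). The chemokine CCL2 had 3.09 and 2.59 CPM in siMRG15, 15.7 and 16.7 CPM in siMRGBP and 11.2 and 11.8 CPM in siLuc, and the pattern recognition protein PTX3 had 1.31 and 1.80, 12.2 and 11.2 and 8.03 and 7.79 CPM. CCL2 and PTX3 were low mainly in siMRG15, while BIRC3 was high mainly in siMRGBP. The adaptor TRAF1 and the cytokines CSF2 and IL1A resembled BIRC3: in siMRGBP they were above siLuc by 1.61 ± 0.12, 1.61 ± 0.11 and 1.68 ± 0.13, and in siMRG15 their differences from siLuc were -0.21 ± 0.12, -0.07 ± 0.11 and -0.26 ± 0.13, none past the test. SOD2, a mitochondrial superoxide dismutase, was the member that did not pass (0.01 ± 0.07). A kappa-B site stood in the 250 bases before the start of 4 of 12 members with a RefSeq promoter (NFKBIA, TNFAIP3, BIRC3 and PTX3), against 9.57% of all promoters.

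Interferon-stimulated genes split: 9 of 17 measured members were higher in siMRG15 and 5 lower (median 0.39). GBP1, a guanylate-binding GTPase, had 0.742 and 0.516 CPM in siMRG15, 15.7 and 14.3 CPM in siMRGBP and 0.508 and 0.653 CPM in siLuc. DDX58, the RNA sensor RIG-I, had 11.9 and 13.0 CPM in siMRG15, 75.6 and 69.4 CPM in siMRGBP and 13.4 and 12.3 CPM in siLuc. In both cases the siMRG15 libraries overlapped siLuc and siMRGBP stood apart. GBP2 (-1.17 ± 0.12), OASL (-0.90 ± 0.14) and IFIT3 (-0.65 ± 0.13) were the other members lower in siMRG15. Of those higher in siMRG15, the antiviral enzyme OAS3 differed by 1.54 ± 0.08, the immunoproteasome subunit PSMB9 by 1.05 ± 0.09 and the transcription factor STAT2 by 0.99 ± 0.06.

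Genes of cholesterol synthesis and targets of its transcription factor SREBP2 were lower in siMRG15 in 13 of 16 measured members (median -0.81). MSMO1, a sterol demethylation enzyme, had 28.9 and 27.1 CPM in siMRG15, 114 and 109 CPM in siMRGBP and 81.8 and 102 CPM in siLuc (-1.96 ± 0.09; limma adjusted p = 1.38e-09). The 3 groups formed separate levels, with siLuc in the middle. The synthesis enzymes HMGCS1, DHCR7 and SQLE differed by -1.31 ± 0.07, -1.30 ± 0.07 and -0.97 ± 0.06, and INSIG1, a sterol-regulated retention protein, by -1.28 ± 0.07. Each of these 5 genes was below siLuc in siMRG15 (-0.67 to -1.67) and above it in siMRGBP (0.29 to 0.58), past the test in both. Of all 16 members, 13 were lower and 2 higher than siLuc in siMRG15 (median -0.70). In siMRGBP 8 were higher and 2 lower than siLuc (median 0.21), so the rise there did not hold for the whole list. SREBF2, which encodes the transcription factor of the pathway, was the 1 member higher in siMRG15 than in siMRGBP (0.27 ± 0.07). The sterol regulatory element TCACNCCAC was found before 1 of the 11 members with a promoter, SREBF2 itself, and in 0.875% of the 27305 RefSeq promoters.

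Chaperones and sensors of the endoplasmic reticulum were lower in siMRG15 in 10 of 12 measured members (median -0.84). HSPA5, the chaperone BiP, had 177 and 204 CPM in siMRG15, 571 and 647 CPM in siMRGBP and 704 and 585 CPM in siLuc (-1.67 ± 0.10; limma adjusted p = 1.14e-08). The siMRGBP libraries overlapped siLuc and siMRG15 lay below both. MANF, a secreted stress protein, and HYOU1, a chaperone, differed in the direct comparison by -1.20 ± 0.06 and -1.10 ± 0.09, and from siLuc by -1.39 ± 0.06 and -0.94 ± 0.09 in siMRG15. EDEM1, which helps clear misfolded glycoproteins, differed from this pattern. It had 86.7 and 87.9 CPM in siMRG15 and 176 and 184 CPM in siMRGBP, both above the 66.5 and 68.1 CPM of siLuc. DNAJB9, a cochaperone of BiP, was the 1 member higher in siMRG15, with 27.2 and 27.8 CPM against 10.8 and 9.67 CPM in siMRGBP and 27.7 and 28.1 CPM in siLuc. The ER stress response element was searched on both strands as CCAAT and CCACG with any 9 bases between them. It was present before 3 of 11 members with a promoter (HSPA5, HSP90B1 and XBP1) and in 0.0806% of the 27305 RefSeq promoters. The HSPA5 window is shown because HSPA5 had the largest difference of the list, with the element in capitals. It lies at chr9:125241344-125241593 of GRCh38.p14 and is printed as read on the minus strand.
HSPA5: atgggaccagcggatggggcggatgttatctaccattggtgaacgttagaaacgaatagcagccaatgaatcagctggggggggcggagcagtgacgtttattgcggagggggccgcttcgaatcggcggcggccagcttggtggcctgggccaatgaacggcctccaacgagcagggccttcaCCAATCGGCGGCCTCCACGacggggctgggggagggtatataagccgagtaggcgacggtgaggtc

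ATF4 is the transcription factor of the amino acid stress response. Its targets were lower in siMRG15 in 11 of 17 measured members and higher in 4 (median -0.97). SLC7A11, the cystine and glutamate exchanger, had 20.8 and 18.6 CPM in siMRG15, 227 and 221 CPM in siMRGBP and 43.9 and 57.4 CPM in siLuc (-3.45 ± 0.10; limma adjusted p = 2.93e-11). All 3 groups were separate. CHAC1, a glutathione-degrading enzyme, differed by -1.53 ± 0.07, the one-carbon enzyme MTHFD2 by -1.27 ± 0.06, the serine synthesis enzyme PSAT1 by -1.38 ± 0.07 and the lipoprotein receptor VLDLR by -1.22 ± 0.07. Those higher in siMRG15 were the stress-induced mTORC1 inhibitors DDIT4 (1.09 ± 0.12) and SESN2 (1.06 ± 0.06), and PCK2 (0.24 ± 0.08) and CEBPB (0.36 ± 0.09). ASNS, asparagine synthetase, did not separate the knockdowns (-0.11 ± 0.08; limma adjusted p = 0.203) and rose against siLuc in both, by 0.80 ± 0.08 in siMRG15 and 0.91 ± 0.08 in siMRGBP. ATF4's composite element TGATGNAA was found before ASNS and CHAC1, 2 of 15 members with a promoter, and in 3.19% of the 27305 RefSeq promoters.

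Redox genes were lower in siMRG15 in 7 of 13 measured members and higher in 4 (median -0.26). GCLM, a subunit of the enzyme of glutathione synthesis, had 18.5 and 17.5 CPM in siMRG15 against 99.5 and 82.9 CPM in siMRGBP and 66.6 and 74.0 CPM in siLuc. Thioredoxin reductase TXNRD1 differed by -1.52 ± 0.08 and the quinone reductase NQO1 by -1.12 ± 0.07. TXNIP, the thioredoxin-binding arrestin that limits glucose uptake, went the other way: 67.4 and 75.6 CPM in siMRG15, 10.4 and 8.01 CPM in siMRGBP and 12.6 and 13.8 CPM in siLuc (2.84 ± 0.11). Its siMRG15 libraries stood far above the other 4.

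p53 targets were higher in siMRG15 in 14 of 19 measured members and lower in 5, with a median of 0.84. FDXR, a mitochondrial ferredoxin reductase, had 171 and 176 CPM in siMRG15, 47.7 and 49.3 CPM in siMRGBP and 59.7 and 53.7 CPM in siLuc (1.82 ± 0.06; limma adjusted p = 9.03e-11). The oxidoreductase TP53I3 had 98.5 and 104 CPM in siMRG15, 45.1 and 46.9 CPM in siMRGBP and 39.7 and 35.4 CPM in siLuc (1.12 ± 0.07). For both, siMRG15 stood apart, and siMRGBP differed from siLuc by -0.22 ± 0.06 and 0.29 ± 0.07. PHLDA3, an AKT inhibitor, and the phosphatase PPM1D differed by 1.26 ± 0.06 and 0.90 ± 0.05. The 5 members lower in siMRG15 were the cell cycle inhibitor CDKN1A (-1.15 ± 0.09), the p53 ubiquitin ligase MDM2 (-0.90 ± 0.08), the ribonucleotide reductase subunit RRM2B (-0.97 ± 0.05), the death receptor TNFRSF10B (-0.35 ± 0.06) and the apoptosis inducer PMAIP1 (-0.32 ± 0.06). CDKN1A stood at 261 and 247 CPM in siMRG15, 619 and 516 CPM in siMRGBP and 228 and 260.5 CPM in siLuc, so siMRG15 overlapped the control and siMRGBP did not. Against siLuc 16 of the 19 were higher in siMRG15 and 11 in siMRGBP, beside 33.5% and 32.1% of all genes.

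**Figure D4:**
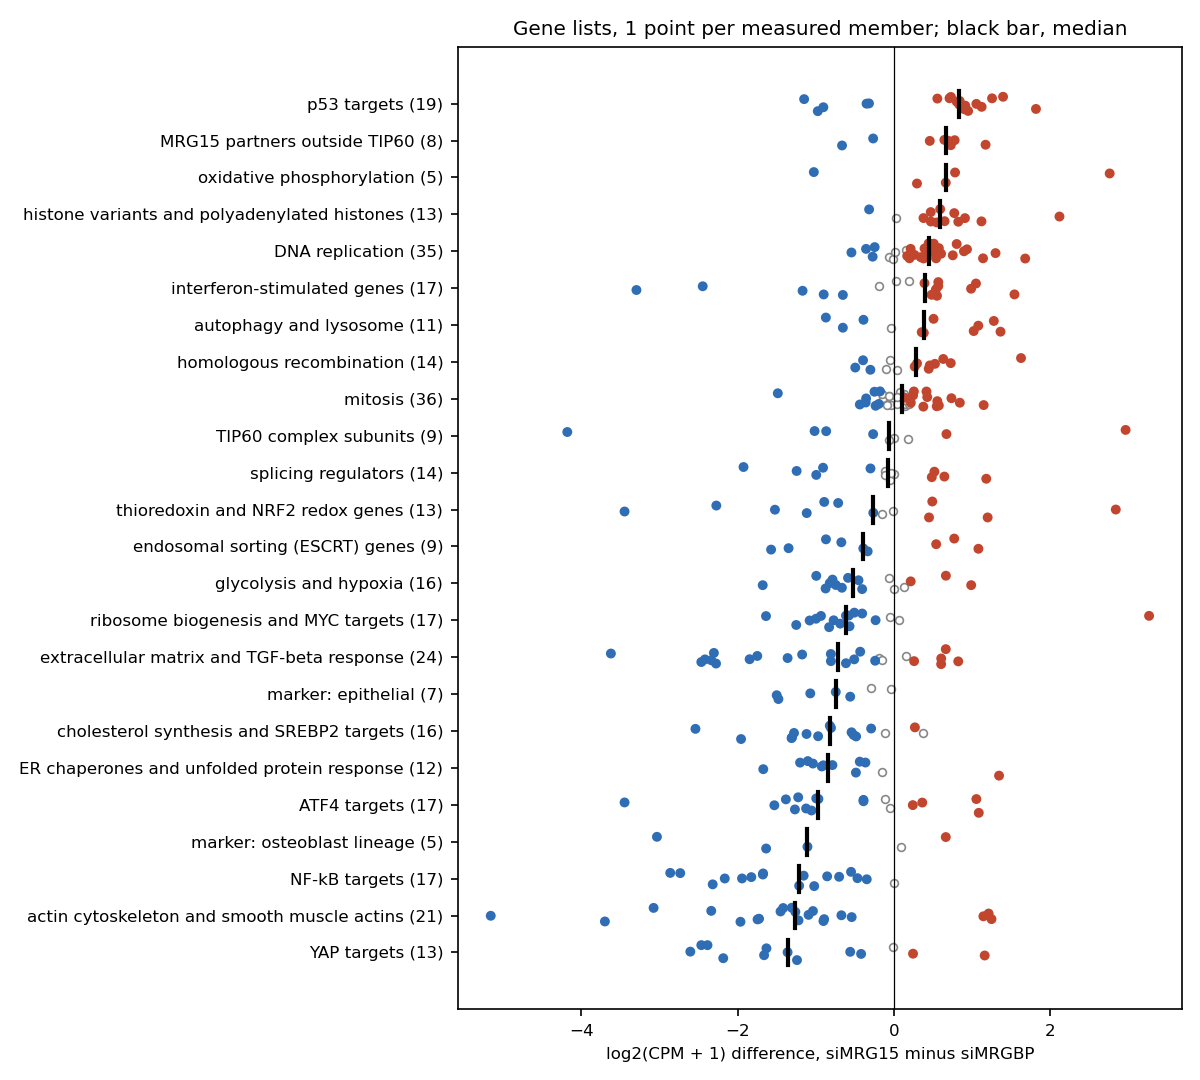
Differences between siMRG15 and siMRGBP on the log2(CPM + 1) scale (horizontal axis) for every measured member of 24 gene lists (vertical axis, number measured in brackets). Filled points passed the test, red higher and blue lower in siMRG15, open points did not, and black bars are medians. The YAP, actin and NF-kB lists lie lowest, and the p53, partner and histone lists lie to the right of 0.

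DNA replication genes were higher in siMRG15 in 27 of 35 measured members and lower in 4 (median 0.44). The cell cycle transcription factor E2F2 had 46.7 and 55.9 CPM in siMRG15, 13.7 and 17.0 CPM in siMRGBP and 29.0 and 28.0 CPM in siLuc (1.68 ± 0.11). DNA ligase LIG1 had 111 and 116 CPM in siMRG15, 42.5 and 48.8 CPM in siMRGBP and 82.6 and 73.6 CPM in siLuc (1.30 ± 0.08). The sliding clamp PCNA differed by 0.90 ± 0.07, the ribonucleotide reductase subunit RRM2 by 0.93 ± 0.06 and the helicase component GINS2 by 1.14 ± 0.07. These 5 genes were above siLuc in siMRG15 and below it in siMRGBP. The helicase cofactor CDC45 was below siLuc in both (-0.32 ± 0.07 and -1.13 ± 0.07). Of the whole list 11 members were higher and 14 lower than siLuc in siMRG15. The list's median against siLuc was 0.03 in siMRG15 and -0.44 in siMRGBP, where 29 members were lower, beside 32.9% of all genes. RFC3, CDC6, GINS3 and GINS1 were the 4 members lower in siMRG15 (-0.25 to -0.54).

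Of the mitotic genes, 13 of 36 measured members were higher in siMRG15, 8 were lower and 15 did not pass the test (median 0.10), so neither share was above that of all genes (39.2% higher, 36.8% lower). FOXM1, a transcription factor of mitotic genes, had 475 and 511 CPM in siMRG15, 224 and 219.9 CPM in siMRGBP and 658 and 701 CPM in siLuc (1.15 ± 0.06). ANLN, the cytokinesis scaffold anillin, had 209.7 and 240.3 CPM in siMRG15, 599.7 and 663 CPM in siMRGBP and 614 and 564 CPM in siLuc (-1.49 ± 0.09). FOXM1 was thus lowest in siMRGBP and ANLN in siMRG15. Against siLuc the medians of this list were -0.35 in siMRG15 and -0.53 in siMRGBP. Homologous recombination genes were higher in siMRG15 in 8 of 14 measured members and lower in 3 (median 0.28). The recombination mediator RAD52 had 27.9 and 26.8 CPM in siMRG15 and 14.2 and 18.2 CPM in siMRGBP (0.73 ± 0.10). The translocase RAD54L had 44.1 and 48.4 CPM in siMRG15 and 30.3 and 28.6 CPM in siMRGBP (0.63 ± 0.07). Against siLuc RAD52 and RAD54L differed by 0.40 ± 0.10 and 0.29 ± 0.07 in siMRG15, and by -0.33 ± 0.10 and -0.34 ± 0.07 in siMRGBP. The recombination list's median against siLuc was -0.03 in siMRG15 (3 members higher, 4 lower) and -0.28 in siMRGBP (2 higher, 8 lower).

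Histone genes whose transcripts appear in poly(A) RNA were higher in siMRG15 in 11 of 13 measured members and lower in 1, HIST1H2BK (-0.32 ± 0.09), with a median of 0.59. H2AFX, the variant phosphorylated at DNA breaks, had 201 and 200.3 CPM in siMRG15, 44.4 and 46.5 CPM in siMRGBP and 308 and 229 CPM in siLuc (2.12 ± 0.10; limma adjusted p = 1.82e-09). Its siMRGBP libraries lay far below the other 4. The linker histones H1FX and H1F0 differed by 1.12 ± 0.11 and 0.82 ± 0.06, and the centromeric variant CENPA by 0.55 ± 0.10. The list's median against siLuc was -0.39 in siMRG15 and -0.99 in siMRGBP, where 12 members were lower, beside 32.9% of all genes. Clustered histone genes are near-identical copies, and reads could be split among them.

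Ribosome biogenesis and MYC target genes were lower in siMRG15 in 14 of 17 measured members (median -0.61). The polyamine enzyme ODC1 had 155 and 155 CPM in siMRG15, 529 and 444 CPM in siMRGBP and 540.5 and 629 CPM in siLuc (-1.64 ± 0.09). The processing factors WDR12, RRP12 and RRP9 differed by -1.25 ± 0.07, -0.83 ± 0.06 and -1.08 ± 0.09. The 1 member higher in siMRG15 was MXD4, a repressor that competes with MYC for its partner MAX and that belongs to the list as an antagonist. MXD4 had 66.5 and 67.2 CPM in siMRG15, 5.64 and 6.49 CPM in siMRGBP and 12.2 and 10.2 CPM in siLuc (3.27 ± 0.09; limma adjusted p = 2.04e-11), so siMRG15 stood apart from the other 4 libraries. MYC itself differed by -0.51 ± 0.08.

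Splicing regulators were higher in siMRG15 in 4 of 14 measured members, lower in 5 and not past the test in 5 (median -0.08), and neither share was above that of all genes. PTBP2, the neuronal paralogue of PTBP1, had 44.5 and 44.1 CPM in siMRG15, 179 and 163 CPM in siMRGBP and 67.0 and 69.8 CPM in siLuc. PTBP1, given above among the partners, had 419 and 447 CPM in siMRG15, 262 and 292 CPM in siMRGBP and 445 and 400.2 CPM in siLuc. The paralogues moved in opposite directions in siMRGBP against siLuc, PTBP2 by 1.31 ± 0.06 and PTBP1 by -0.61 ± 0.08, while in siMRG15 the values were -0.62 ± 0.06 and 0.04 ± 0.08. PTBP3 and the RNA-binding proteins QKI and MBNL1 differed by -1.24 ± 0.08, -0.99 ± 0.08 and -0.91 ± 0.07, and the kinase CLK4 by 1.18 ± 0.08.

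Autophagy and lysosome genes were higher in siMRG15 in 7 of 11 measured members and lower in 3 (median 0.38). TFEB, the transcription factor of lysosomal genes, had 12.9 and 11.1 CPM in siMRG15, 3.95 and 4.15 CPM in siMRGBP and 8.49 and 6.55 CPM in siLuc. The lysosomal enzymes GAA and TPP1 differed by 1.28 ± 0.09 and 1.02 ± 0.07 and the autophagy kinase ULK1 by 1.08 ± 0.09. The lysosomal cholesterol exporter NPC1 (-0.65 ± 0.06), the protease cathepsin L, listed as CTSL1 (-0.87 ± 0.08), and the receptor SQSTM1 (-0.39 ± 0.11) went the other way. Only 5 of 42 oxidative phosphorylation genes were in the table, 4 higher and 1 lower in siMRG15. NDUFA4, a respiratory chain subunit, had 199.9 and 176 CPM in siMRG15, 30.9 and 23.2 CPM in siMRGBP and 159 and 273 CPM in siLuc (2.76 ± 0.19). The siLuc libraries differed widely between themselves, yet both lay above siMRGBP.

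Of 16 measured glycolysis and hypoxia genes 10 were lower and 3 higher in siMRG15 (median -0.52). BNIP3, a mitophagy receptor, differed by -1.68 ± 0.08 and the glucose transporter SLC2A1 by -0.87 ± 0.06, while the related transporter SLC2A3 differed by 0.99 ± 0.08. Of 9 genes of endosomal sorting (ESCRT) 6 were lower and 3 higher in siMRG15. VTA1, a cofactor of the VPS4 ATPases, had 19.6 and 20.8 CPM in siMRG15, 61.2 and 62.9 CPM in siMRGBP and 119 and 135 CPM in siLuc, below the control in both knockdowns and lower in siMRG15 (-1.57 ± 0.07). VPS4B differed by -1.35 ± 0.06, and CHMP1B, an ESCRT-III subunit, by 1.08 ± 0.08.

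Osteoblast lineage genes checked the identity of the cells. RUNX2, the master transcription factor of the lineage, had 45.0 and 42.7 CPM in siMRG15 and 39.1 and 42.8 CPM in siMRGBP (0.10 ± 0.06; limma adjusted p = 0.176), and COL1A1 had 1754 and 1703 CPM against 963 and 1235 CPM. ALPL, alkaline phosphatase, had 9.28 and 10.5 CPM in siMRG15, 99.8 and 77.3 CPM in siMRGBP and 18.8 and 17.0 CPM in siLuc (-3.03 ± 0.10), and the secreted proteins TNFRSF11B and SPP1 differed by -1.64 ± 0.08 and -1.11 ± 0.12. Of 5 measured members 3 were lower, 1 higher and 1 not past the test. The summed levels were 1784 and 1838 CPM in siMRG15, 1192 and 1442 CPM in siMRGBP and 1953 and 2469 CPM in siLuc. COL1A1 made up most of each sum, so the sums do not show the 3 lower members. Of the erythroid and myeloid markers of K562, the line used for the chromatin samples of the series, SPI1 and HBA1 were in the table, at no more than 0.0948 and 0.0297 CPM in the 6 libraries.

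Outside these lists the largest positive differences included LINC00473, a long noncoding RNA induced by cAMP signalling, with 16.9 and 18.5 CPM in siMRG15, 0.437 and 0.393 CPM in siMRGBP and 7.88 and 6.84 CPM in siLuc (3.72 ± 0.09; limma adjusted p = 1.48e-11). The kinase gene SBK1 had 20.8 and 23.4 CPM in siMRG15 and 1.66 and 2.48 CPM in siMRGBP. The transcription factor MYB had 7.47 and 8.76 CPM in siMRG15 and 0.576 and 0.759 CPM in siMRGBP, and the potassium channel gene KCNC1 had 23.4 and 24.2 and 3.27 and 3.92 CPM. In all of these both siMRG15 libraries lay above siLuc and both siMRGBP libraries below it. ACO1, the cytosolic aconitase that also acts as an iron regulatory protein, differed from them: 135 and 143 CPM in siMRG15 and 123 and 130.2 CPM in siLuc, against 23.2 and 28.5 CPM in siMRGBP. MGAT3, a glycosyltransferase, C14orf132, OLFM1, GAS7 and YPEL1 differed by 2.39 to 2.69.

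Outside the lists the largest negative differences included the growth factors FGF1 and EGF and the collagen COL8A1. The growth factor FGF1 had 13.7 and 13.4 CPM in siMRG15, 198 and 170.3 CPM in siMRGBP and 37.1 and 42.3 CPM in siLuc. The collagen COL8A1 had 10.0 and 10.0 CPM in siMRG15 and 117 and 132 CPM in siMRGBP. For both genes siLuc lay between the knockdowns. EGF was high mainly in siMRGBP, with 48.6 and 41.8 CPM against 3.24 and 2.88 CPM in siMRG15 and 4.45 and 4.21 CPM in siLuc. The transcription factor KLF2 differed by -3.67 ± 0.10, the natriuretic peptide gene NPPB by -3.53 ± 0.12, the desmosomal protein DSP by -3.36 ± 0.11 and TMEM154 by -3.50 ± 0.08.

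Other genes were shifted in the same direction from siLuc by both knockdowns. They were picked for that pattern, so their values are a description. IMPDH1, an enzyme of guanine nucleotide synthesis, had 48.9 and 54.6 CPM in siMRG15, 73.5 and 68.6 CPM in siMRGBP and 12.3 and 11.6 CPM in siLuc. The motor protein MYO6 had 82.8 and 90.1, 79.9 and 90.8 and 25.5 and 24.2 CPM in that order, and HHAT, the acyltransferase of Hedgehog ligands, 45.9 and 49.4, 46.1 and 51.3 and 13.1 and 14.4 CPM. All 4 knockdown libraries lay above siLuc for these genes and for NF2, the ribose phosphate enzyme RPIA and CCDC109B. Lower in both than in siLuc were NRAS, a RAS GTPase, with 136 and 137 CPM in siMRG15, 111 and 118 CPM in siMRGBP and 430.3 and 491 CPM in siLuc, and the prolactin receptor PRLR with 7.51 and 7.72, 8.66 and 9.47 and 41.5 and 40.9 CPM. The growth factor receptor PDGFRB, the cardiac troponin TNNT2, SYT2 and SCML1 were also lower in all 4 knockdown libraries.

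The authors' deposited table for the pair held a short list of 14 gene names, chosen by them on these same samples, in blocks headed down, up and an equals sign. For MYOCD, a coactivator of smooth muscle genes and the first of the 4 in the down block, the levels were 0.386 and 0.190 CPM in siMRG15, 0.175 and 0.366 CPM in siMRGBP and 1.39 and 1.72 CPM in siLuc. PIFO, first of 4 in the up block, had 2.17 and 2.64 CPM in siMRG15, 2.43 and 1.99 CPM in siMRGBP and 0.742 and 0.770 CPM in siLuc. Knockdown and control libraries did not overlap for either gene, at levels of at most 2.64 CPM. Of the 14 names 5 passed the direct test (LRRC38, FAM134B, GALNT5, SPTLC3 and PDRG1), against 76% of all genes, with differences between -0.28 and 0.28.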

How the data were processed

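RNA-seq libraries were grouped by the siRNA in the sample labels. The authors deposited CPM for selected genes. How they scaled libraries, selected genes or used strand is in none of the sources used here. Build hg19, MACS2 2.0.10, Bowtie2 2.1.6, Subread 2.0.0 with featureCounts, and minimap2 2.17-r941 are named, without role or order, per the submitters' processing notes. Of 8813 rows, 5 that repeated another were removed. The 15 names retyped by spreadsheet software were tested but not named. The deposited short list and transcript marks (gene names and marks of 0 or 1, with no values) are the authors' own. Other sheets of group means and the 4 chromatin samples were not used here.

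CPM are not counts, so the test was limma 3.58.1 (R 4.3.3) with an intensity trend on log2(CPM + 1), 2-sided. It fitted 6 group means to all 12 libraries, with 6 residual degrees of freedom, no filter and no replicate block. Adjusted p-values are Benjamini-Hochberg over 8808 genes, threshold 0.05. Fold changes on this scale understate those of low genes. Divided by what 1 read is worth, 100% of values came out whole within 0.01 reads, and edgeR 4.0.16 and DESeq2 1.42.0 were run on the recovered read counts of 8 libraries as alternatives. Deviations of same-numbered libraries correlated at -0.03 (siMRG15 with siMRGBP), -0.05 (siMRG15 with siLuc) and -0.47 (siMRGBP with siLuc). No same-numbered pair correlated positively, while siMRGBP and siLuc shared variation with crossed numbers. The source of that shared variation was not tested. Replicates within a group differed by more than sampling noise. Separate cultures are not stated in the labels, and the p-values therefore cover only the variation among these libraries, which may be technical.

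The members and gene lists were chosen with earlier results of these data known. Named genes were the siRNA targets and a MORF4L1 pseudogene, the 14 largest differences each way among genes past the test with separate libraries, up to 6 members of each list by smallest adjusted p, and 6 genes per direction that moved to opposite sides, or to the same side, of siLuc with the largest smaller change. Further list members were named after their values were seen. Some genes that the rule names are not reported here. Of the gene names 7325 matched a current or older symbol in the RefSeq table of GRCh38.p14 or in a list of Ensembl gene names. Promoters come from RefSeq GRCh38.p14, a later build than the files', and were matched by symbol.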

Additional observations from a re-analysis of the deposited data

Results flagged for a closer look

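For 12 genes the knockdowns moved to opposite sides of siLuc, each past the test against that shared control. They are the 6 genes per direction for which the smaller of both changes was largest. They were chosen on these same contrasts, so their direct difference is given as a description. Differences are on the log2(CPM + 1) scale, ± SE pooled over all groups of the fit, n = 2 libraries per group.

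Higher than siLuc in siMRG15 and lower in siMRGBP were 6 genes. LINC00473 differed from siLuc by 1.16 ± 0.09 in siMRG15 and -2.56 ± 0.09 in siMRGBP, 3.72 ± 0.09 apart. SBK1 differed by 1.84 ± 0.13 and -1.08 ± 0.13, 2.92 ± 0.13 apart. C14orf132 differed by 1.31 ± 0.08 and -1.38 ± 0.08, 2.69 ± 0.08 apart. OLFM1, a secreted glycoprotein of neurons, differed by 1.2 ± 0.09 and -1.44 ± 0.09, 2.63 ± 0.09 apart. GAS7, a membrane-shaping protein, differed by 1.07 ± 0.07 and -1.32 ± 0.07, 2.39 ± 0.07 apart. PPAP2B, a lipid phosphate phosphatase, differed by 1.08 ± 0.07 and -1.04 ± 0.07, 2.12 ± 0.07 apart.

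The other 6 were lower in siMRG15 and higher in siMRGBP than in siLuc. LCP1 had values of -1.98 ± 0.10 in siMRG15 and 3.18 ± 0.10 in siMRGBP, -5.16 ± 0.10 apart. FGF1 had -1.48 ± 0.08 and 2.18 ± 0.08, -3.67 ± 0.08 apart. NPPB had -1.74 ± 0.12 and 1.79 ± 0.12, -3.53 ± 0.12 apart. TMEM154 had -1.88 ± 0.08 and 1.63 ± 0.08, -3.50 ± 0.08 apart. C1orf98 had -1.52 ± 0.06 and 1.65 ± 0.06, -3.18 ± 0.06 apart. ANXA3, a phospholipid-binding annexin, had -1.50 ± 0.09 and 1.58 ± 0.09, -3.08 ± 0.09 apart. The cause was not tested for any of the 12.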

How the results depend on the processing

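With the replicate number as a block, 6623 genes passed between the knockdowns, 6029 for siMRG15 and 5629 for siMRGBP against siLuc. Every comparison stayed within 1.5 times its count. Crossing the siLuc numbers, an alternative chosen after seeing the data, gave 5790 calls for siMRGBP against siLuc. Leaving out 1 library of a knockdown (with the lone library taken to vary as the remaining groups do) gave 6108 to 6485 direct calls, 563 to 818 at least 2-fold higher in siMRG15 and 993 to 1096 at least 2-fold lower. On recovered reads edgeR called 6441 genes between the knockdowns and DESeq2 6051. Genes with a mean of at least 5 CPM, fewer genes tested, gave 4065 direct calls (1929 higher, 2136 lower), 3801 for siMRG15 against siLuc (1677 higher) and 3652 for siMRGBP (1861 higher, 1791 lower). The count at least 2-fold higher in siMRG15 depended on the scale: 1114 with a pseudocount of 0.25, 268 with 5, 1366 with edgeR and 1365 with DESeq2 on recovered reads. At least 2-fold lower were 655 with a pseudocount of 5, 1628 with edgeR and 1607 with DESeq2. Of 175 named genes 166 passed the direct test, and 5 lost the call in some of 14 settings, namely MORF4L2, KRT17, RPIA, TNNT2 and PRLR, and 0 turned. Directions turned for genes not past the test. KAT5 turned to -0.0098 with median-of-ratios factors, and ranged from -0.036 to 0.051 when 1 library was left out. Over the same omissions SPI1 ranged from -0.047 to 0.034, MYO6 from -0.071 to 0.11, HHAT from -0.10 to 0.045 and PDGFRB from -0.36 to 0.085. HHAT also turned to 0.033 with TMM factors. The TIP60 subunit median turned to 0.0030 with TMM factors. The cause was not tested for these values. Of genes under 1 CPM 55.8% passed the direct test against 84.3% at 20 to 100 CPM. The part of depth and of the log2(CPM + 1) scale in this gap was not tested.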

Other observations

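The authors' deposited table of transcripts holds marks of 0 or 1 for each knockdown against siLuc, with no values. Of 25895 transcripts listed, 3359 were marked down and 1889 up in siMRG15, against 1510 down and 2586 up in siMRGBP. Of the 6 MORF4L1 transcripts 5 were marked down in siMRG15, and the 1 MRGBP transcript was marked down in siMRGBP, in the authors' deposited table. No source used here states the rule behind the marks.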
